A study of Mus musculus with 6 samples.

Results

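The cortical neuropeptides followed here are 9 peptide precursor genes, Sst, Vip, Npy, Cck, Crh, Tac1, Penk, Pdyn and Cort, together with Crhbp, whose protein binds corticotropin-releasing hormone. They were chosen by name, with earlier results of these data known. All 10 were found by Ensembl identifier among the 18160 genes of the deposited table of normalized counts. Normalized counts are reads per gene divided by scaling factors, so that samples can be compared. Prefrontal cortex RNA was taken from adult C57BL/6J mice (postnatal day 56). There were 3 samples heterozygous for a Cyfip2 mutation (HET) and 3 wild-type samples (WT). The allele and the sex are not given in the labels used here, and nothing there says that samples of a genotype were separate animals, so p-values measure only the spread between these samples.

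Neuropeptides are cut from larger precursors in dense-core granules and released to act on G protein-coupled receptors, usually more slowly and over longer distances than GABA or glutamate. In the cortex most of these genes are expressed by subsets of GABAergic interneurons and are used to name their classes, while Cck is also expressed by pyramidal cells. Tac1, Penk and Pdyn are in addition abundant in projection neurons of the striatum, which lies close to the prefrontal cortex. CYFIP2 is a subunit of the WAVE complex, which drives actin branching. The question of the design is what a Cyfip2 mutation on 1 allele changes in the adult prefrontal transcriptome, and here it is asked of the peptide genes.

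Sample totals were 36.4 to 37.1 M normalized counts (M is 1000000), and the lowest values implied about 31.9 to 37.2 M reads in HET samples and 27.0 to 48.0 M in WT samples. Cyfip2 itself averaged 28834 ± 644 in HET samples and 44752 ± 1369 in WT samples (SD, n = 3 each), so the labels and the targeted gene matched. WT sample 2 stood apart with high oligodendrocyte and striatal marker means, WT samples 1 and 3 lay at opposite ends of the activity-regulated genes, and WT sample 3 was highest for upper-layer and lowest for deep-layer markers. None of the 10 neuropeptide and Crhbp genes passed an adjusted p of 0.05 between genotypes by limma-trend, where 2 of 15151 genes tested did (0.0132%). At an unadjusted p under 0.05 there were 2 members, Sst and Crhbp, both higher in HET samples, against 5.07% of all genes tested (2.36% higher and 2.71% lower in HET samples). The same 2 members were the ones in which every HET sample lay above every WT sample, a pattern without overlap that 10.5% of all genes showed in either direction, 5.15% in this direction and 5.3% in the opposite one. Of the 10 members 8 had a log2 fold change (HET over WT) above 0, as did 50.8% of all genes. The 8 included Crh at 0.00021 and Pdyn at 0.0058, whose mean counts were not higher in HET samples. Crh, Pdyn and Vip changed sign in 5, 3 and 1 of 16 alternative settings. The median log2 fold change was 0.08 over the members and 0.0020 over all genes, and it was 0.14 without WT sample 1 and 0.019 without WT sample 2.

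Levels per length ordered the genes into an abundant and a scarce group. Divided by the exonic bases of each gene, Cck averaged 7442 ± 318 normalized counts per kilobase in HET samples and 7787 ± 338 in WT samples (SD, n = 3 each). Sst averaged 7427 ± 448 per kilobase in HET samples and 6485 ± 72.7 in WT samples, and Npy 6431 ± 136 in HET samples and 6160 ± 291 in WT samples. The ranges over the 6 samples of Cck and Sst overlapped, as did those of Sst and Npy, while every Cck sample lay above every Npy sample. Within single samples, Cck was above Sst in 5 of the 6, and Sst was above Npy in all 6. A wide gap followed. Penk, next in order, lay between 527 and 751 per kilobase over the 6 samples, and its lowest sample was above the highest sample of Vip. Vip, at 324 to 435, and Crhbp, at 301 to 402, overlapped each other. Pdyn, at 221 to 277, overlapped Cort, at 170 to 229, and the scarcest members, Crh at 87.9 to 115 and Tac1 at 48.5 to 90.0, overlapped as well. Within single samples, Vip was above Crhbp in 5 of the 6, and Pdyn was above Cort and Crh above Tac1 in all 6. Lengths are those of all annotated exons together, which lowers the level per kilobase of genes such as Vip and Tac1 whose annotation holds long or alternative exons.

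**Figure D1:**
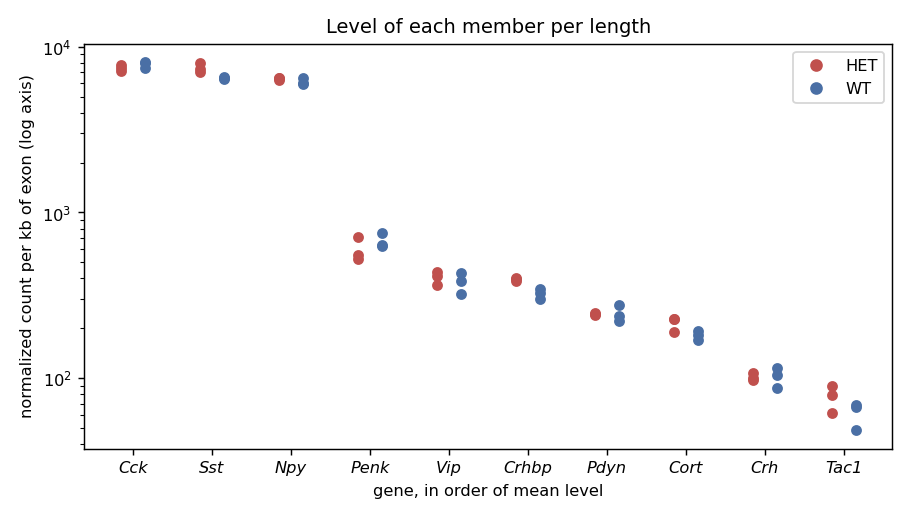
Normalized counts per kilobase of exon (log axis) of the 10 genes in each of the 3 HET (red) and 3 WT (blue) samples, 1 point per sample, in order of the mean level. Cck, Sst and Npy lie above 5956 per kilobase in all samples and the other 7 genes at or below 751.

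Somatostatin and its relative cortistatin were measured first. Sst encodes the peptide that inhibits hormone and transmitter release and names the interneurons that target distal dendrites. Sst (ENSMUSG00000004366; GRCm38 chromosome 16, 23889573 to 23890958, minus strand) had 5087, 5714 and 5264 normalized counts in HET samples 1, 2 and 3, against 4733, 4631 and 4664 in WT samples 1, 2 and 3. All HET samples lay above all WT samples, and the WT samples were nearly identical, with a coefficient of variation of 1.12% against 6.03% among HET samples. The difference was 14.4%, with a 95% interval of 4.84% to 24.8%, and the adjusted p was 0.74 by limma-trend, its unadjusted p ranking 129 of 15151. A two-sided exact permutation test gave p = 0.1, which is as low as it can go with 3 samples a genotype. Cort encodes cortistatin, which binds somatostatin receptors and is made by cortical interneurons. It had 128, 155 and 154 normalized counts in HET samples, against 115, 124 and 131 in WT samples. HET samples 2 and 3 were above every WT sample, but HET sample 1 lay below WT sample 3, so the genotypes overlapped. The log2 fold change of Cort was 0.24 ± 0.13 (SE), with a 95% interval of -0.06 to 0.53. The ratio of Sst to Cort was 39.6, 36.8 and 34.2 in HET samples and 41.2, 37.3 and 35.6 in WT samples, so the genotypes overlapped in it.

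Corticotropin-releasing hormone and its binding protein followed. Crh encodes the stress peptide that acts on CRHR1, and in the cortex it is made by scattered interneurons. Its normalized counts were 133, 129 and 142 in HET samples and 151, 116 and 139 in WT samples. The HET values lay inside the WT range, and its log2 fold change, 0.00021 ± 0.14 (SE), had a 95% interval of -0.30 to 0.30. Crhbp encodes the secreted protein that sequesters the peptide, and in the mouse cortex it marks part of the somatostatin interneurons. Crhbp (ENSMUSG00000021680; GRCm38 chromosome 13, 95431371 to 95444924, minus strand) had 712, 724 and 697 normalized counts in HET samples, against 586, 541 and 621 in WT samples. Every HET sample was above every WT sample. The difference was 22.2%, with a 95% interval of 8.45% to 37.7%, an adjusted p of 0.74 by limma-trend and an exact permutation p of 0.1. Crhbp had the smallest unadjusted p of the 10 genes, at rank 77 of 15151. The ratio of Crhbp to Crh counts was looked at after the values were seen. It was 5.35, 5.61 and 4.92 in HET samples, against 3.87, 4.67 and 4.47 in WT samples, without overlap. The ratios of Sst to Vip and of Penk to Pdyn, also taken, overlapped between genotypes. How often ratios of other genes lack overlap was not counted.

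The promoters of Sst, Crhbp and Cort are shown because Sst and Crhbp were the members without overlap between genotypes and Cort is the relative of Sst. The windows are from RefSeq on GRCm38.p6 and run from 250 bases before to 50 bases after the start. They are written 5′ to 3′ on the gene's strand. Capitals mark TGACGTCA, the full cAMP response element bound by CREB, or its shorter core TGACG, read on both strands (CGTCA on the other strand). The full element contains the core.
Sst, chr16:23890795-23891094, minus strand: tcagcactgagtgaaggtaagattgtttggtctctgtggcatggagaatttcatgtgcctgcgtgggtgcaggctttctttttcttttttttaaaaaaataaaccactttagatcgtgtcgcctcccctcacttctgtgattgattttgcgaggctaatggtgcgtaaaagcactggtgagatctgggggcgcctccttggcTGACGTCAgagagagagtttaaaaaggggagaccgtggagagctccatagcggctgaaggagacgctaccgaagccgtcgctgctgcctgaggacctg
Crhbp, chr13:95444782-95445081, minus strand: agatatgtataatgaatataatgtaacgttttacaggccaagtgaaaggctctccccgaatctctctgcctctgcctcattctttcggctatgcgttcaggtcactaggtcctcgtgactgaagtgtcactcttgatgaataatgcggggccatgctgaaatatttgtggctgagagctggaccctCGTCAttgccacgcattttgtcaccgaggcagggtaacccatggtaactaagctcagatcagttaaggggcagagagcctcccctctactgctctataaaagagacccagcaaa
Cort, chr4:149126714-149127013, minus strand: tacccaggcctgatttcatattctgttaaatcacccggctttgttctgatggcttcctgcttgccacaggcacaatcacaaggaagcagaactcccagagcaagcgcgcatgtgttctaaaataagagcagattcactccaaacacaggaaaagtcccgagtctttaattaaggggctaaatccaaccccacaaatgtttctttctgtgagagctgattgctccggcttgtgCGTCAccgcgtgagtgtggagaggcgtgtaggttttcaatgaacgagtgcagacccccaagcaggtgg
Among the 8 members with a window in RefSeq's table, Sst was the only gene with the full element, its first base at position -48, and 1.79% of all 32851 promoter windows of the same length held it. The core was found in 6 of the 8 members, Sst, Vip, Cck, Crhbp, Tac1 and Cort, against 20.8% of all windows, and not in the windows of Npy and Pdyn. In Crhbp its first base lay at position -64 and in Cort at -18. These matches describe letters in the windows, and no factor was measured. Crh and Penk had no window in that table.

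Vip and Npy mark other interneurons. Vip encodes vasoactive intestinal peptide, found in interneurons that inhibit other interneurons. It had 1480, 1245 and 1416 normalized counts in HET samples, against 1473, 1101 and 1306 in WT samples. Sample 2 was the lowest of its genotype in both groups, and the genotypes overlapped. The log2 fold change of Vip was 0.10 ± 0.11 (SE), with a 95% interval of -0.14 to 0.34, and it was -0.011 without WT sample 2, 0.048 without HET sample 1, 0.17 without HET sample 2 and 0.20 without WT sample 1. Npy encodes neuropeptide Y, made by neurogliaform and some somatostatin interneurons. Its normalized counts were 3686, 3551 and 3683 in HET samples and 3675, 3413 and 3371 in WT samples. WT sample 1 lay within the HET range while the other WT samples were below it, and the log2 fold change of Npy, 0.06 ± 0.05 (SE), had a 95% interval of -0.06 to 0.19. It was 0.10 without WT sample 1 and 0.039 without WT sample 3.

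Cck, the cholecystokinin gene, is expressed by pyramidal cells and by a class of basket cells. It had 9313, 10142 and 9680 normalized counts in HET samples, against 10341, 10487 and 9660 in WT samples. The genotypes overlapped because WT sample 3 lay among the HET samples. On the log2 scale Cck differed by -0.07 ± 0.05 (SE; 95% interval -0.19 to 0.06). It was -0.036 without HET sample 1, -0.042 without WT sample 2 and -0.10 without WT sample 3. Cck and Penk were the members with a log2 fold change below 0.

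The tachykinin and opioid precursors came last. Tac1 encodes substance P and neurokinin A. It had 210, 271 and 306 normalized counts in HET samples, against 229, 236 and 165 in WT samples, with coefficients of variation of 18.5% and 18.7%. The genotypes overlapped, and its log2 fold change of 0.32 ± 0.17 (SE) was the largest of the 10 genes, with a 95% interval of -0.07 to 0.71. That log2 fold change was 0.16 without WT sample 3 and 0.20 without HET sample 3. Penk encodes the enkephalins. Its normalized counts were 861, 1162 and 905 in HET samples and 1028, 1227 and 1042 in WT samples. Sample 2 was the highest of its genotype in both groups, and the genotypes overlapped. The log2 fold change of Penk was -0.18 ± 0.12 (SE), with a 95% interval of -0.44 to 0.08, and it was -0.098 without WT sample 2, -0.095 without HET sample 1 and -0.31 without HET sample 2. Penk shares 233 exonic bases with A830012C17Rik on the opposite strand. The library kit keeps strand, but no label or header used here gives the strand setting of the counting. Pdyn encodes the dynorphins. It had 698, 709 and 715 normalized counts in HET samples, against 801, 686 and 637 in WT samples. The HET samples were close together, with an SD of 8.48 against 84.1 in WT samples, and lay inside the WT range. The log2 fold change of Pdyn was 0.0058 ± 0.09 (SE), with a 95% interval of -0.20 to 0.21.

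**Figure D2:**
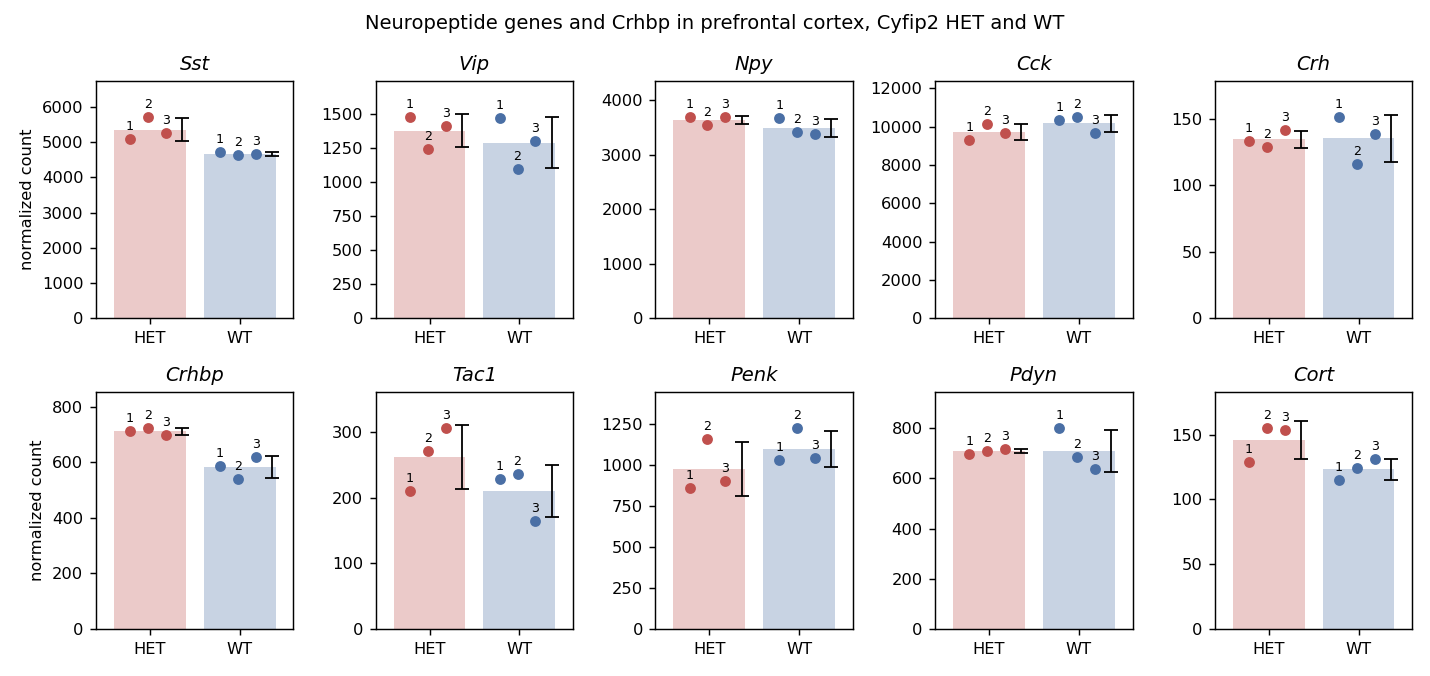
Normalized counts of the 10 genes; each point is 1 sample, numbered as in the labels, HET left (red) and WT right (blue), bars show the mean and the black line the SD over 3 samples. In Sst and Crhbp the 3 HET points lie above the 3 WT points, and in the other 8 genes the genotypes overlap.

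**Figure D3:**
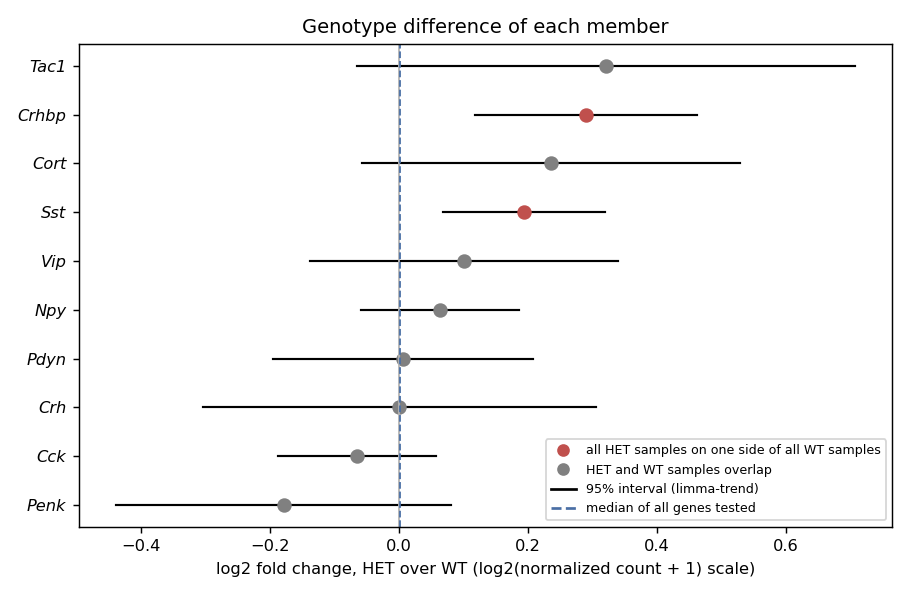
Log2 fold change (HET over WT) of each gene with its 95% interval from limma-trend; red points mark genes without overlap between genotypes and the dashed line the median of all genes tested. The intervals of Crhbp (0.12 to 0.46) and Sst (0.07 to 0.32) lie above 0, and those of the other 8 genes include 0.

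Sample by sample, the members did not move as a block. HET sample 2 held the highest value of Sst, Crhbp and Cort, HET sample 1 of Vip and Npy, and HET sample 3 of Tac1. WT sample 2 held the lowest value of Sst, Vip, Crh and Crhbp and the highest of Cck and Penk. In that sample the oligodendrocyte markers lay 0.34 and the striatal markers 0.30 above their 6-sample mean on the log2 scale, while the other samples lay between -0.16 and 0.0059 and between -0.14 and 0.05. Among defining striatal genes, Drd2 was at 17.8 to 33.8 normalized counts in HET samples and 20.6 to 48.3 in WT samples, and Isl1 was listed at 0 in 4 of the 6 samples. Of 9 striatal genes tested 6 were lower in HET samples, 3 of these without overlap, their median log2 fold change was -0.21 and the list means of the genotypes overlapped. Their part in the values of Penk, Tac1 and Pdyn was not tested. Without WT sample 2 the log2 fold change was 0.19 for Sst and 0.24 for Crhbp.

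**Figure D4:**
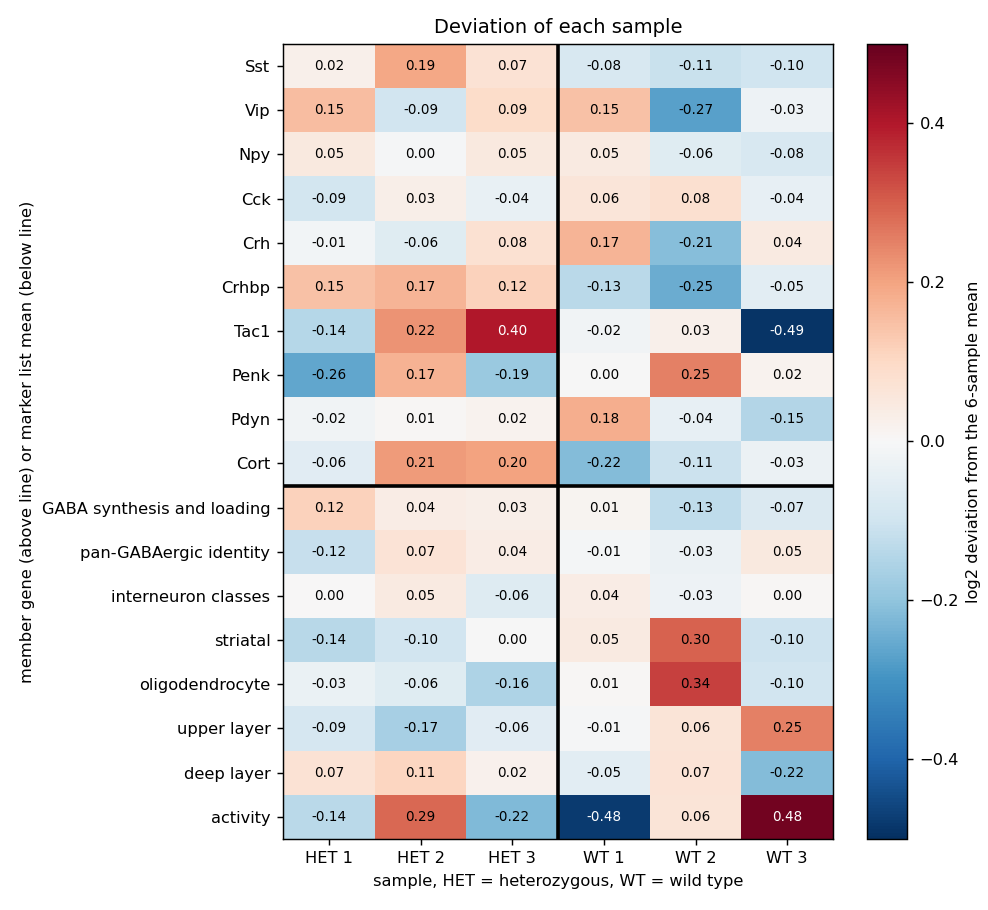
Log2 deviation from the mean over the 6 samples, for each member gene (above the thick line) and for the mean of marker lists (below it), with HET samples left of WT samples; red is above and blue below the mean. Sst and Crhbp are above their means in the HET columns, and WT sample 2 has the highest striatal (0.30) and oligodendrocyte (0.34) list values.

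Because most of these peptides are made by GABAergic neurons, each was also set against Gad1, Gad2 and Slc32a1, the genes for GABA synthesis and vesicular loading. Fewer cells of a type and less RNA per cell cannot be told apart in bulk tissue. The mean of these 3 genes deviated by 0.03 to 0.12 in HET samples and by -0.13 to 0.01 in WT samples, without overlap, and none of them passed the test over all genes. Slc32a1, the vesicular GABA transporter, averaged 3325 ± 261 in HET samples and 2946 ± 93.2 in WT samples (SD, n = 3 each). Relative to this mean, Sst differed by 0.07 on the log2 scale and its genotypes overlapped, at -0.26, -0.018 and -0.13 in HET samples and -0.27, -0.16 and -0.20 in WT samples (exact two-sided permutation p = 0.4). This difference was 0.134 without HET sample 1, 0.011 without HET sample 2 and 0.041 without WT sample 1. Crhbp differed by 0.17, with a mean of -3.05 in HET samples and -3.21 in WT samples, without overlap (exact permutation p = 0.1). All genes had a median difference of -0.12 on this scale, 24.7% of them had no overlap in either direction and 0.607% lay above WT in every HET sample. Cck differed by -0.19 with every HET sample below every WT sample (exact permutation p = 0.1), as in 24.1% of all genes. With 7 pan-GABAergic identity genes added to the 3, where all genes had a median difference of -0.03, Sst (0.16), Cort (0.20) and Crhbp (0.26) were above WT in every HET sample (exact permutation p = 0.1 each), as were 2.14% of all genes, with 10.1% free of overlap in either direction. Cck overlapped at -0.098 on this scale. The Sst difference relative to GABAergic genes depended on which genes were taken, and the Crhbp difference had no overlap with either set.

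Receptors of these peptides were measured in the same samples. Of 17 tested receptor genes none passed the test over all genes, 2 had an unadjusted p under 0.05 and 10 had a log2 fold change above 0, with a median log2 fold change of 0.04. Sstr1, a somatostatin receptor, averaged 610 ± 53.4 normalized counts in HET samples and 505 ± 75.4 in WT samples (SD, n = 3 each), with overlap (log2 fold change 0.28 ± 0.12, SE). The other tested somatostatin receptors, Sstr2, Sstr3 and Sstr4, had log2 fold changes of 0.01, -0.05 and 0.08. Npy2r, the mainly presynaptic neuropeptide Y receptor, had 72.9, 60.1 and 63.4 normalized counts in HET samples, against 50.2, 47.0 and 43.5 in WT samples. It was the only one of the 17 without overlap (log2 fold change 0.47 ± 0.17, SE), and by limma-trend its adjusted p was 0.93. Npy1r was at -0.02 and Npy5r at 0.12. Cckbr, the cholecystokinin receptor of the brain, averaged 2830 ± 99.8 in HET samples and 2753 ± 90.4 in WT samples (SD, n = 3 each), and Vipr1 averaged 2089 ± 81.0 in HET samples and 2102 ± 49.3 in WT samples. Crhr1, the main cortical receptor of corticotropin-releasing hormone, averaged 1575 ± 86.8 in HET samples and 1650 ± 121 in WT samples (SD, n = 3 each). The substance P receptor gene Tacr1 was at 0.26 ± 0.23 (SE). Among opioid receptors, log2 fold changes were 0.35 ± 0.20 (SE) for the dynorphin receptor gene Oprk1, Oprd1 being at -0.08 ± 0.12 and Oprm1 at -0.42 ± 0.29, all with overlap. Oprm1 was low, at 20.8 to 36.6 normalized counts in HET samples and 26.2 to 42.6 in WT samples.

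Genes that process and store peptide precursors had a log2 fold change below 0 for 13 of 16, with a median log2 fold change of -0.06, and none passed the test over all genes. Chga, the granule protein chromogranin A, averaged 4026 ± 114 in HET samples and 4406 ± 185 in WT samples (SD, n = 3 each), and it was the only gene of this list without overlap (log2 fold change -0.13 ± 0.05, SE). Pam, the enzyme that amidates peptide ends, was at 0.13 ± 0.06 and Vgf, a granule protein, at -0.10 ± 0.06 (log2 fold change ± SE), both with overlap. The prohormone convertase genes Pcsk1 and Pcsk2 were at log2 fold changes of -0.04 and -0.07, and the carboxypeptidase gene Cpe was at 0.12.

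Other forebrain peptides gave 8 tested genes, of which none passed over all genes and 6 had a log2 fold change above 0, with a median log2 fold change of 0.13. Grp, the gastrin-releasing peptide gene, had 77.7, 96.3 and 73.3 normalized counts in HET samples, against 48.6, 48.0 and 61.3 in WT samples, without overlap (log2 fold change 0.64 ± 0.18, SE, adjusted p = 0.74 by limma-trend). Adcyap1, which encodes the peptide PACAP, averaged 682 ± 58.4 in HET samples and 585 ± 38.2 in WT samples (SD, n = 3 each), also without overlap. Trh was low, at 11.6 to 21.8 in HET samples and 6.90 to 12.2 in WT samples. Nppc, the C-type natriuretic peptide gene, had 80.2, 91.4 and 84.1 normalized counts in HET samples, against 73.0, 71.4 and 73.4 in WT samples, and was the third gene of this list without overlap. Peptides that define hypothalamic neurons, Avp, Oxt, Pmch, Hcrt and Agrp, were all below a mean of 10 and not tested. The other genes of this list, Pomc and Gnrh1, passed the filter at low levels. Pomc lay at 25.3 to 29.8 in HET samples and 24.4 to 29.0 in WT samples. Gnrh1 averaged 9.47 ± 5.26 in HET samples and 11.4 ± 2.27 in WT samples (SD, n = 3 each), also with overlap.

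**Figure D5:**
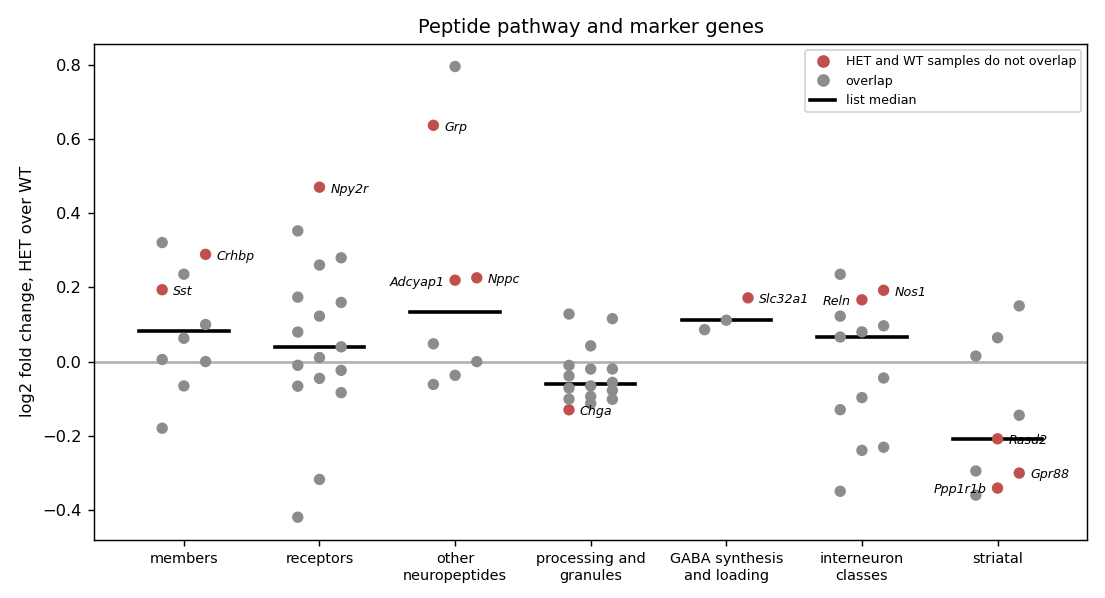
Log2 fold change (HET over WT) of each tested gene in the member list, 3 peptide pathway lists and 3 marker lists; black lines are list medians, and red, named points are genes without overlap between genotypes. Medians are 0.08 for the members, 0.04 for receptors, 0.13 for other neuropeptides, -0.06 for processing genes, 0.11 for GABA synthesis and loading, 0.07 for interneuron classes and -0.21 for striatal markers.

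Markers of interneuron classes that are not peptides had a log2 fold change above 0 for 7 of 13 and a median log2 fold change of 0.07, with no gene past the test. Nos1, found in a subset of somatostatin cells, had a log2 fold change of 0.19 ± 0.07 and Reln of 0.17 ± 0.07 (SE), both without overlap, while Lamp5, a neurogliaform marker, was at -0.23 ± 0.08 with overlap. The 7 pan-GABAergic identity genes had a median log2 fold change of 0.04, and Dlx6 had the smallest p, at -0.24 ± 0.14 (SE). No gene of any other marker list passed the test, and each list's gene with the smallest p follows. Those with higher means in HET samples were Ldb2 for deep layers (log2 fold change 0.25; list median 0.10), Gfap for astrocytes (0.31; 0.07), Trem2 for microglia (0.28; 0.04), Abcc9 for endothelial cells (0.16; 0.09) and Slc6a20a for meninges (0.33; 0.11). Those with lower means were Scnn1a for upper layers (-0.65; -0.24), Neurod2 for excitatory neurons (-0.18; -0.02), Olig2 for oligodendrocytes (-0.21; -0.19), Ppp1r1b for the striatum (-0.34; -0.21), Arc for activity (-0.42; -0.04), Folr1 for choroid plexus (-0.90; 0.48) and Gnrh1 for the hypothalamus (-0.34; -0.15). All 8 deep-layer genes had higher means in HET samples, while 5 of 6 upper-layer and all 6 oligodendrocyte genes had lower ones, and the upper-layer list means did not overlap between genotypes. The meninges list means did not overlap either, at 0.013 to 0.16 in HET samples and -0.14 to 0.0092 in WT samples, with 5 of 6 genes above 0 in log2 fold change. The part of these lists in the member values was not tested.

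The genes whose log2 levels over the 6 samples were most like each member were searched among 13312 genes with a mean of at least 50. The Pearson correlation of the nearest genes lay between 0.969 and 0.998, and as the highest of many over 6 samples these values describe likeness only. Sst was nearest to Nppc (0.996) and to Grin2d (0.991), an NMDA receptor subunit gene that interneurons express. Crhbp was nearest to Hook1 (0.991) and Efr3b (0.991), Cort to Lag3 (0.987) and Zcrb1 (0.985), and Vip to Caprin1 (0.997). Npy was nearest to Zdhhc15 (0.988) and Gm14326 (0.985), Cck to Ndufa7 (0.992) and Sh2b1 (0.991), and Crh to Rab5a (0.998) and Necap1 (0.993). Tac1 was nearest to Shtn1 (0.997) and Rad51ap2 (0.991), Penk to Serpina3n and Snx22 (0.996 each), and Pdyn to Ptpre (0.970) and Sinhcaf (0.969).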

How the data were processed

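RNA sequencing of 3 heterozygous and 3 wild-type prefrontal cortex samples used the TruSeq Stranded mRNA kit, according to the protocols in the labels (per the labels). Per the submitters' processing notes, which give no roles, DESeq2 1.19.11, Salmon 0.11.2 and R 3.6.0 were involved, with GRCm38 as the build. The authors deposited a normalized signal per gene (scaled read estimates, not raw counts). Low values fell on whole reads within 0.1 read for 76.9% to 84.3% of values up to 2 reads, but for only 20.3% to 37.9% of those of 10 to 20 reads, so whole reads could not be recovered and no count model was run. The scarcest member had the equivalent of about 95.6 reads in its lowest sample.

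Genes with a mean of at least 10 were tested as log2(value + 1) with limma-trend (limma 3.58.1, R 4.3.3), genotype as the only term and no further scaling, with Benjamini-Hochberg adjustment over all 15151 genes and a threshold of 0.05. All 10 members passed the filter. The log scale understates the change of low genes. The procedure was tested on simulated data. Any 2 samples had identical values in 0 to 3 of 13312 genes, so none was a repeat deposit. Symbols were matched for 18122 of 18160 identifiers, and exon lengths and overlaps came from GENCODE M21 on GRCm38. The members and lists were chosen with earlier results of these data known. Beside the members, the rule named the 3 genes with the smallest p in each of 4 lists (processing, receptors, other peptides, interneuron classes), the first of each other list and the 2 most like genes of each member (1 of them is not reported here); further receptors, processing genes, Nppc, hypothalamic and striatal genes were named after their values were seen. Genes listed but not analysed here were Cckar and Dlx6os1. Alternatives were a trimmed-mean (TMM) scaling, limma without trend, robust limma, leaving out the filter or raising it to 50, pseudocounts of 0.5 and 5, a threshold of 0.1, array weights, a replicate block, leaving out each sample, and a wider GABA reference.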

Additional observations from a re-analysis of the deposited data

How the results depend on the processing

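None of the 10 members passed under any of the 16 alternatives to the genotype comparison. Their log2 fold changes kept their sign in Sst (0.15 to 0.23, adjusted p 0.32 to 1.0), Crhbp (0.24 to 0.34, adjusted p 0.33 to 1.0), Npy, Cck, Tac1, Penk and Cort. Crh turned to -9.0e-04 with TMM scaling, -1.7e-05 with a pseudocount of 5 and -0.0014 with array weights. Leaving out a sample gave -0.11 to 0.084 for Crh, -0.067 to 0.098 for Pdyn and -0.011 to 0.20 for Vip. Over all genes, 1 gene passed without the trend and with a mean of at least 50, and 1 to 4 when a sample was left out (1 without HET sample 1, 4 without HET sample 3 or WT sample 1). Leaving out a sample gave a member median of 0.019 to 0.14 and 2 to 4 members without overlap (4 without HET sample 1 or 2 or WT sample 1 or 3). Relative to GABA genes, 2 to 5 members were then without overlap (5 without HET sample 1, 4 without HET sample 3 or WT sample 3). Fewer samples overlap less easily, and the share of all genes without overlap was not counted for these settings. These counts are therefore not a result about the members. With the sample number as a replicate block the adjusted p was 0.32 for Sst and 0.33 for Crhbp, with 2 genes past the threshold. Same-numbered samples correlated in their deviations at 0.13, 0.12 and -0.0052, and the other combinations of a HET and a WT sample at -0.16 to 0.046. The closest samples of all were HET and WT sample 2, then HET and WT sample 3. Their median absolute log2 differences were 0.083 and 0.089. The labels used here name no pairs, so the main test took none, and these values do not settle whether same-numbered samples belong together. With 3 samples a genotype, a difference as small as that of Sst may be missed after adjustment over all genes.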
